A study of Mus musculus with 4 samples.

Results

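The transcripts of 8 enzymes of cholesterol synthesis were compared between mouse epidermis with a conditional knockout of the calcium sensors STIM1 and STIM2 and its control. The genes were taken by name from the deposited count table in the order of the pathway, and all 8 were found among its 56493 genes: Hmgcs1, Idi1, Fdps, Fdft1, Sqle, Cyp51, Msmo1 and Sc5d. The series holds 4 libraries of epidermis separated from dorsal skin. Both cKO libraries come from mice in which floxed Stim1 and Stim2 were deleted by Cre under the keratin 14 promoter, which is active in stratified epithelia. Cells of the skin that this Cre does not reach keep both genes. Which of the cell types named below it reached was not tested. Both control libraries come from Flox/Flox mice, whose Stim1 and Stim2 are floxed and for which no Cre is named. The labels give no age, sex or strain, and they do not say whether a library is 1 mouse or a pool, so p-values measure the spread between these libraries only. Libraries were 3' tags of total RNA, given as raw counts per gene.

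Cholesterol is built from acetyl-CoA. HMG-CoA synthase (Hmgcs1) opens the mevalonate route, and isopentenyl diphosphate isomerase (Idi1) converts its isoprene unit to a reactive isomer. Farnesyl diphosphate synthase (Fdps) joins these units into farnesyl diphosphate, the branch point. Squalene synthase (Fdft1) turns this into squalene on the way to sterols. Squalene epoxidase (Sqle) then adds oxygen, and lanosterol demethylase (Cyp51), methylsterol monooxygenase (Msmo1) and lathosterol oxidase (Sc5d) trim and desaturate the ring. Sterol regulatory element-binding protein 2 (SREBP2, gene Srebf2) switches on most of these genes when membrane cholesterol is low, together with the CCAAT-binding factor NF-Y. In epidermis the pathway supplies the cholesterol of the barrier lipids of the cornified layer, and sebaceous glands also make sterols and their precursor squalene.

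RefSeq promoter windows (build GRCm38.p6) matched 5 of the 8 genes by symbol. The 250 bases before the annotated start were searched on both strands for CCAAT (the letters NF-Y reads), GGGCGG (a GC box), CACGTG (an E-box) and CACNCCAC (the core of a sterol regulatory element). All 5 held CCAAT and all 5 held GGGCGG, while 33.9% and 32.7% of 32851 windows of that length did. CACNCCAC was found in Hmgcs1 alone of the 5 (5.29% of all windows) and CACGTG in Sc5d alone (6.02%). Of 13 other cholesterol synthesis enzymes with a window, 9 held CCAAT and 11 held GGGCGG. Hmgcs1, Cyp51 and Msmo1 are shown because they had the most counts of the matched genes and differ in how far the control libraries lie apart. Letters in capitals are matches to these motifs on either strand, and a match is not a measured binding site. Each motif was searched as 1 exact pattern, so a missing match does not show that a site is absent. Hmgcs1 lies at chr13:119690101-119690350 (plus strand), Cyp51 at chr5:4104698-4104947 (minus strand) and Msmo1 at chr8:64733579-64733828 (minus strand), and each sequence reads from 5′ to 3′ towards the start of transcription.
Hmgcs1: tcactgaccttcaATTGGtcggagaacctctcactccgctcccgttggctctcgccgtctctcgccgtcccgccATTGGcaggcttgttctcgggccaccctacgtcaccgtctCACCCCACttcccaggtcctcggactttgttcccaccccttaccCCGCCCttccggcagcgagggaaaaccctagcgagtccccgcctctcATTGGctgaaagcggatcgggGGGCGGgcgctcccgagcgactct
Cyp51: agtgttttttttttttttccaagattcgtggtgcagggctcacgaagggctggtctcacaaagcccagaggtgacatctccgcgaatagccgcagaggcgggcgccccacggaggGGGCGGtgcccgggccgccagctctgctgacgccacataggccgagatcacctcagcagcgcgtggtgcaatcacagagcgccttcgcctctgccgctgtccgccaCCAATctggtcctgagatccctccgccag
Msmo1: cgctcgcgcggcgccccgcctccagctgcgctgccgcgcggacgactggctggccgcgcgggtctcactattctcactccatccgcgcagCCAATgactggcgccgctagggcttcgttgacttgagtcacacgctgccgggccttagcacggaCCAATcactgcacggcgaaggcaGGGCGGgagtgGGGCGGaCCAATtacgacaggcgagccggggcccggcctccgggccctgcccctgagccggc
CCAAT (or its complement ATTGG) stood in the Hmgcs1 window at 3 places, in the Msmo1 window at 3 and in the Cyp51 window at 1 place. The windows not shown held it at 2 places (Idi1) and at 1 place (Sc5d). Whether the number of matches goes with the spread of the controls was not tested. No window of Fdps, Fdft1 or Sqle was used here.

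The libraries were shallow, with totals from 118858 counts in cKO replicate 2 to 322426 in control replicate 2, so that 3 counts, which a 0 cannot exclude, stood for 9.58 to 33.7 CPM. CPM here are counts scaled to a common library total after TMM adjustment, and their intervals cover counting error only. Counts assigned to copies of mitochondrial genes in the nuclear genome (7 genes) made up 7.73% to 22.6% of the totals, most in cKO replicate 2. Whether these reads came from the copies or from mitochondrial transcripts was not tested. Markers of basal keratinocytes, which the label epidermis calls for, summed to 9074 and 6249 CPM in cKO and 6046 and 4934 CPM in control over 8 genes. Without Krt14 these sums were 4719 and 3248 CPM against 5117 and 4068 CPM, and the groups overlapped. Stim1 counts were 23 and 6 in cKO libraries, compared with 24 and 62 in controls (log2 fold change -0.98, edgeR adjusted p 0.671), and Stim2 counts were 0 and 1 compared with 3 and 18. Stim2 did not pass the count filter, Stim1 did not pass the threshold, and whether the 3' tags lie in the deleted part of either gene is not given. Summed levels of markers of other cell types also differed between the groups, in part through single genes. The summed level of 11 skeletal muscle markers was 44.5 and 135 CPM in cKO against 1483 and 1051 CPM in control, with 4 of 7 tested markers called lower. That of 10 hair follicle markers was 1925 and 2315 CPM against 5181 and 6741 CPM, with 0 of 3 tested markers called and Krt27 and Krt35 at 0 in every library. That of 7 fibroblast markers was 267 and 820 CPM in cKO against 197 and 137 CPM, with Pdgfra at 0. It rested on Postn, the 1 of 3 tested that was called higher, without which the sums were 36.4 and 607 CPM against 160 and 102 CPM and overlapped. The summed level of 12 sebaceous gland markers was 1561 and 3226 CPM in cKO against 1425 and 1073 CPM in control. It rested on Krt79, without which the sums were 659 and 2169 CPM against 1153 and 818 CPM and overlapped. Of the 10 tested sebaceous markers 7 had estimates above 0 and 3 below. Their groups were apart with cKO higher in 3 and lower in 1, and groups were apart in 38.5% of all tested genes. The lower marker was Scd3, with 24.3 and 0 CPM in cKO against 96.05 and 112 CPM in control (edgeR adjusted p 0.272). Elovl3, among the higher, had 93.0 and 393 CPM in cKO against 48.0 and 41.5 CPM in control (edgeR adjusted p 0.195).

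None of the 8 enzymes rose or fell past the threshold in cKO. Of the 8, 7 passed the filter on low counts and entered the test of 4243 genes, in which 36 genes (0.848%) were called at an adjusted p under 0.05. Among the 7 tested enzymes 0 were called, and 0 had an unadjusted p under 0.05, where 8.39% of all tested genes did. DESeq2 and limma-voom also called 0 of the 7, and 0 of the 7 had an unadjusted p under 0.05 there. Their median log2 fold change was 0.09, against 0.01 over all tested genes, with 4 estimates above 0 and 3 below. The groups did not overlap in 1 of the 7, and in 38.5% of all tested genes. The depth left wide intervals. Over the 7 genes the 95% intervals of the ratio of cKO to control reached down to 0.334 (Fdps) and up to 3.698 (Sc5d). A p that misses the threshold does not show that the groups were equal.

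**Figure D1:**
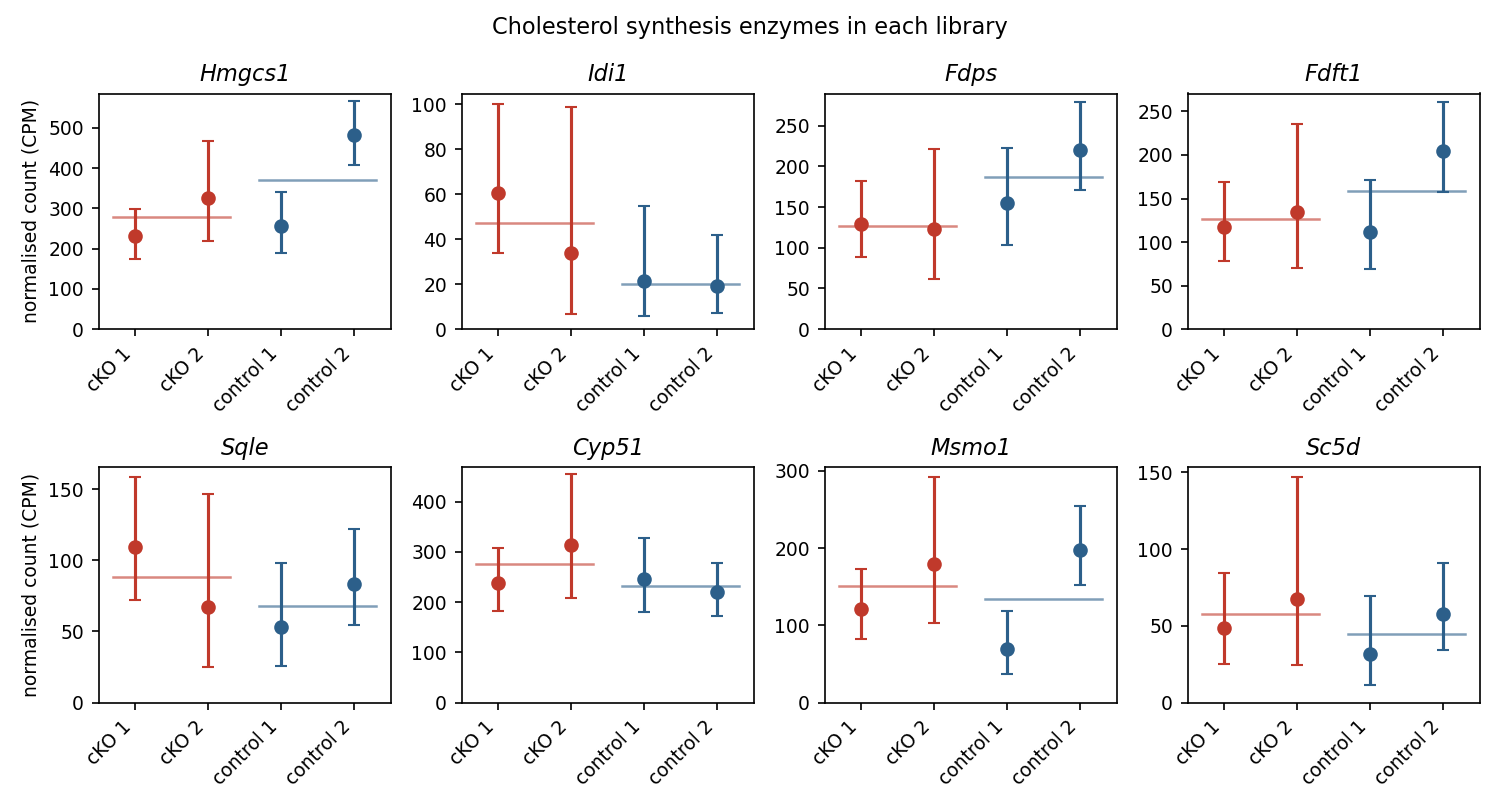
Normalised counts (CPM) of the 8 enzymes in both cKO (red) and both control (blue) libraries; points are libraries, bars are exact 95% Poisson intervals of the count, horizontal lines are group means, and the vertical axes start at 0 and differ between panels. Only Fdps and Idi1 have groups that do not overlap, with Fdps lower and Idi1 higher in cKO.

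Hmgcs1 (ENSMUSG00000093930, chromosome 13, 120151915 to 120169796 in the table's GRCm39 positions) makes HMG-CoA, from which mevalonate is formed. Its counts were 57 and 29 in the cKO libraries and 48 and 151 in the controls, or 230 and 326 CPM against 256 and 482 CPM. The highest value was control replicate 2, and control replicate 1 lay between the cKO libraries, so the groups overlapped. The cKO mean was 278 ± 67.5 CPM (SD, n = 2), and the control mean was 369 ± 160 CPM (SD, n = 2). The log2 fold change was -0.44 with a standard error of 0.47 (95% interval -1.45 to 0.56, edgeR adjusted p 0.923). It was -0.81 without control replicate 1 and 0.10 without control replicate 2, so its sign rested on control replicate 2.

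Idi1 (ENSMUSG00000058258, chromosome 13, 8935537 to 8942487) converts isopentenyl diphosphate to its reactive isomer. It had the fewest counts of the 8 enzymes, 15 and 3 in cKO and 4 and 6 in control, and did not pass the filter. The CPM were 60.7 and 33.7 in cKO against 21.3 and 19.2 in control. Both cKO values lay above both control values, but the counting intervals of both cKO libraries overlapped those of both control libraries. With Idi1 added to the tested genes, a departure from the written plan, its log2 fold change was 1.28 with a standard error of 0.93 (95% interval -0.73 to 3.295, edgeR adjusted p 0.821). Without cKO replicate 1 it was 0.69.

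Fdps (ENSMUSG00000059743, chromosome 3, 89000895 to 89009266) makes farnesyl diphosphate, from which sterols and the lipid anchors of prenylated proteins both derive. Counts of 32 and 11 in cKO libraries compared with 29 and 69 in controls, or 129 and 124 CPM against 155 and 220 CPM. Fdps was the only tested enzyme whose groups did not overlap, and the cKO libraries lay below both controls. The log2 fold change was -0.57 with a standard error of 0.47 (95% interval -1.58 to 0.44, edgeR adjusted p 0.875), the largest in size of the 7, and 38.5% of all tested genes had one at least as large. It was -0.79 without control replicate 1 and -0.28 without control replicate 2.

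Fdft1 (ENSMUSG00000021273, chromosome 14, 63382599 to 63417027) joins farnesyl units into squalene. Counts of 29 and 12 in cKO libraries compared with 21 and 64 in controls, which gave 117 and 135 CPM against 112 and 204 CPM. Both cKO values fell between the control values. The log2 fold change was -0.37 with a standard error of 0.50 (95% interval -1.44 to 0.71, edgeR adjusted p 0.955), and it was 0.15 without control replicate 2 and -0.71 without control replicate 1. Exons of Fdft1 share 774 bases with Ctsb on the opposite strand, and the sources used here do not say whether the counting used strand.

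Sqle (ENSMUSG00000022351, chromosome 15, 59186926 to 59203041) is a rate-limiting oxygenase of the sterol branch. Counts of 27 and 6 in cKO libraries compared with 10 and 26 in controls, or 109 and 67.4 CPM against 53.4 and 83.0 CPM. The libraries of the groups alternated, with cKO replicate 1 highest and control replicate 1 lowest. The log2 fold change of 0.40 had a standard error of 0.60 (95% interval -0.90 to 1.71, edgeR adjusted p 0.965) and became -0.086 without cKO replicate 1 and 0.77 without control replicate 2.

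Cyp51 (ENSMUSG00000001467, chromosome 5, 4131145 to 4154746) removes a methyl group from lanosterol. Counts of 59 and 28 in cKO libraries compared with 46 and 69 in controls, or 239 and 315 CPM against 245 and 220 CPM. The control libraries lay close together, and cKO replicate 1 lay between them. Its log2 fold change was 0.23 with a standard error of 0.44 (95% interval -0.71 to 1.17, edgeR adjusted p 0.980), the smallest standard error of the 8. With library totals as the only scaling it was -0.0023. Exons of Cyp51 share 166 bases with Akap9 on the opposite strand.

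Msmo1 (ENSMUSG00000031604, chromosome 8, 65171173 to 65186826) oxidises methyl groups of the sterol ring. Counts of 30 and 16 in cKO libraries compared with 13 and 62 in controls, or 121 and 180 CPM against 69.4 and 198 CPM. Both cKO values lay inside the span of the control values. The log2 fold change was 0.09 with a standard error of 0.56 (95% interval -1.12 to 1.29, edgeR adjusted p 0.997). It moved to -0.43 without control replicate 1, to 1.07 without control replicate 2 and to -0.18 without cKO replicate 2.

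Sc5d (ENSMUSG00000032018, chromosome 9, 42162891 to 42175552) sets a ring double bond near the end of the pathway, in the step that makes the precursor of both cholesterol and vitamin D. Counts of 12 and 6 in cKO libraries compared with 6 and 18 in controls, or 48.5 and 67.4 CPM against 32.0 and 57.5 CPM. Both cKO values were above control replicate 1, and control replicate 2 lay between them. The log2 fold change was 0.28 with a standard error of 0.74 (95% interval -1.32 to 1.89, edgeR adjusted p 0.992), and it was 0.80 without control replicate 2 and -0.034 without control replicate 1.

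**Figure D2:**
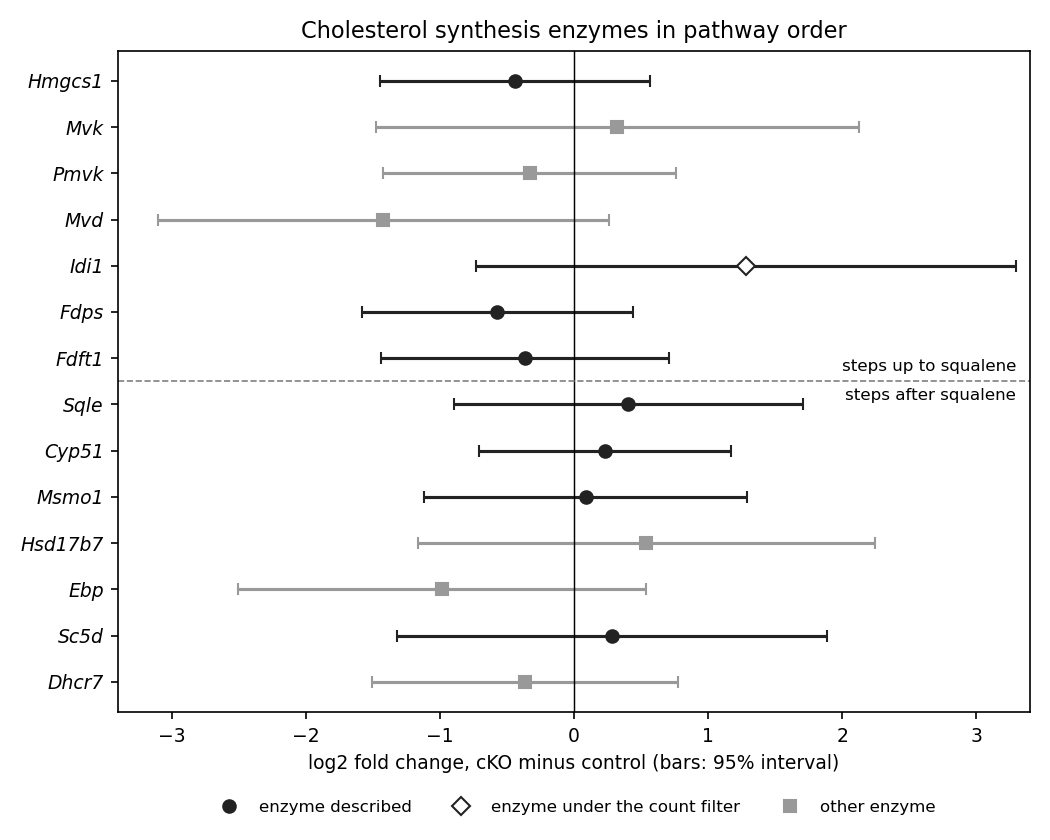
Log2 fold change (cKO minus control, horizontal axis) of 8 enzymes described here (black; Idi1, open, was under the count filter) and 6 other tested enzymes (grey) in pathway order, with 95% intervals from the edgeR fit. All 14 intervals shown include 0.

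Taking counts as independent molecules, the controls differed from each other by more than counting error in 3 of the 8 enzymes. The share of all tested genes that did so was not computed, so this count is not a trait of the enzymes. Whether molecular identifiers were collapsed is not given, and the intervals are not adjusted for the number of ratios looked at. Control replicate 2 was above control replicate 1 by 2.85-fold for Msmo1 (95% interval 1.55 to 5.66, from the counts alone), by 1.88-fold for Hmgcs1 (1.35 to 2.66) and by 1.82-fold for Fdft1 (1.10 to 3.14). For Fdps, Sqle and Sc5d the ratio was also above 1, at 1.42 to 1.80, with intervals that include 1. Cyp51 stood apart, with a ratio of 0.898 (0.609 to 1.33), and Idi1 had the same ratio with few counts. Control replicate 2 was thus higher in 6 of the 7 tested enzymes, against 50.8% of all tested genes. In the knockouts, replicate 2 was higher in 5 of the 7, against 48.8% of all. Between the cKO libraries all 8 intervals include 1, with ratios from 0.556 for Idi1 to 1.48 for Msmo1. The shallow cKO replicate 2 had only 3 (Idi1) to 29 (Hmgcs1) counts per enzyme. These intervals therefore do not show that the cKO libraries were closer to each other than the controls. The median absolute log2 difference between the control libraries was 0.82 over the 7 tested enzymes and 0.53 over all tested genes. Between the cKO libraries it was 0.47 over the 7 and 0.69 over all.

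**Figure D3:**
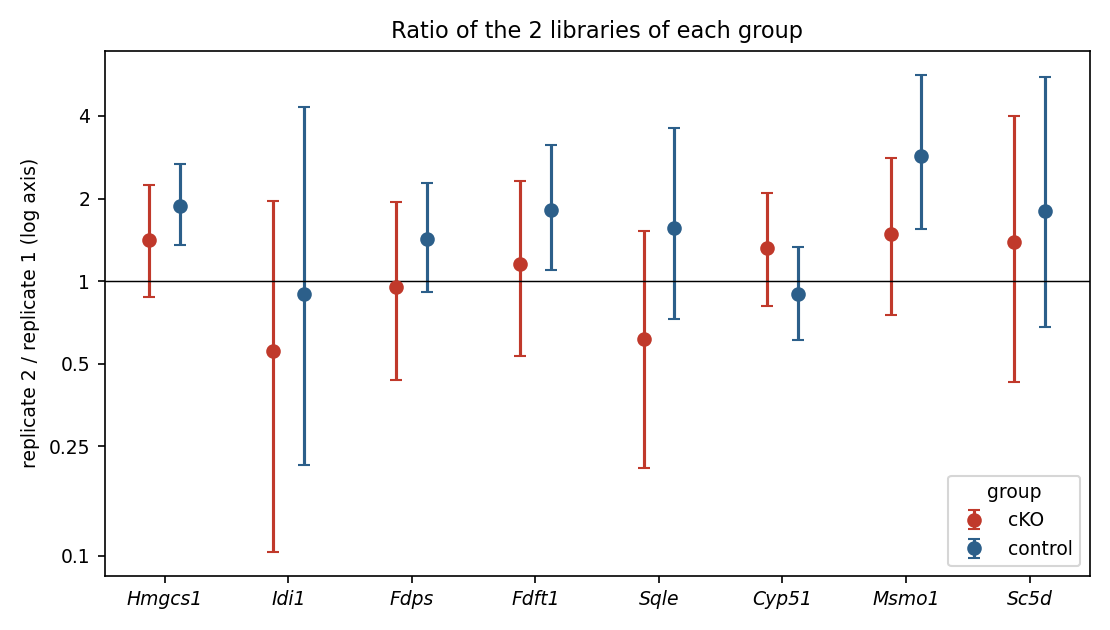
Ratio of replicate 2 to replicate 1 in CPM (vertical axis, logarithmic) within cKO (red) and control (blue) for each enzyme, with exact 95% intervals from the counts of both libraries. The control intervals of Hmgcs1, Fdft1 and Msmo1 lie above 1, and all cKO intervals include 1.

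Levels relative to each other do not depend on library scaling. The 8 enzymes together took 261 and 111 counts in cKO libraries and 177 and 465 in controls, or 1055 and 1248 CPM against 945 and 1485 CPM, and the groups overlapped. The 4 steps after squalene (Sqle, Cyp51, Msmo1 and Sc5d) took 49.0% (95% Wilson interval 43.0% to 55.1%) and 50.5% (41.3% to 59.6%) of these counts in cKO. In control they took 42.4% (35.3% to 49.7%) and 37.6% (33.3% to 42.1%). The cKO shares were above both control shares, with intervals that overlap for 3 of the 4 pairs of libraries. This division was made after the values were seen, it has no test, and with 2 against 2 libraries an exact permutation test cannot go below 0.33. Cyp51 alone took 14.8% (11.9% to 18.4%) in control replicate 2, against 22.6% to 26.0% in the other libraries. Hmgcs1 took 32.5% (28.4% to 36.9%) there and 21.8% to 27.1% in the others. Without Cyp51 the shares after squalene were 34.2% and 33.7% in cKO against 22.1% and 26.8% in control. Without Hmgcs1 they were 62.7% and 68.3% against 58.1% and 55.7%.

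The same division of 13 other enzymes gave shares after squalene of 55.6% and 62.5% in cKO and 56.5% and 56.7% in control, and the groups overlapped. Over both sets of enzymes together the shares were 51.4% and 53.6% in cKO and 47.9% and 43.8% in control. The Wilson intervals of these overlapped for every pair of a cKO and a control library.

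**Figure D4:**
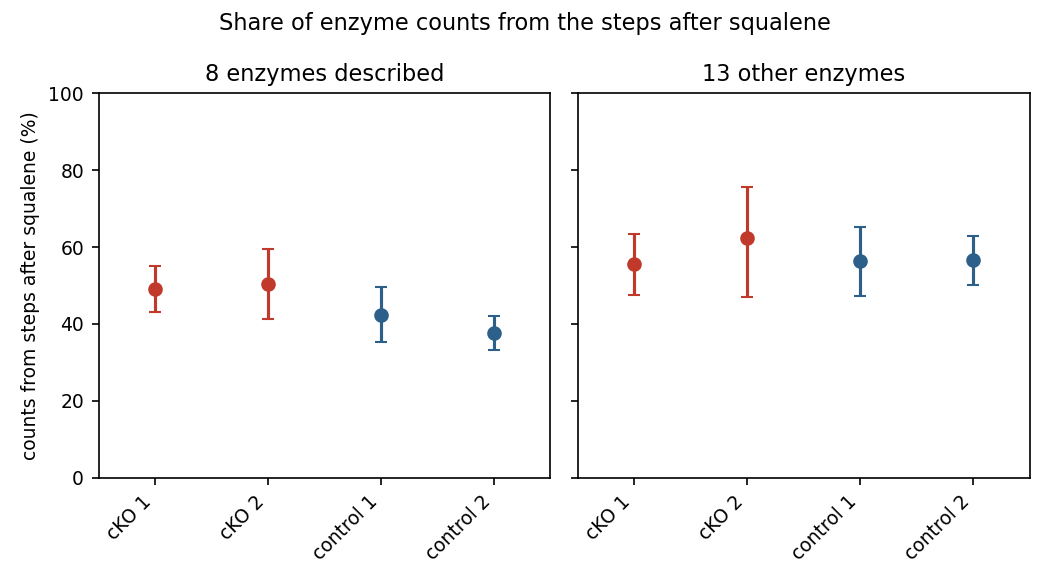
Share (%) of enzyme counts that come from the steps after squalene in each library, for the 8 enzymes described here and 13 other enzymes; bars are 95% Wilson intervals, cKO in red and control in blue. The cKO shares are above the control shares in the left panel and mixed with them in the right panel.

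Of 13 other synthesis enzymes described here, 6 were tested and 0 were called. Mvd, which makes isopentenyl diphosphate, had the lowest estimate of the 6, with 7 and 2 counts in cKO libraries and 17 in each control (log2 fold change -1.42, standard error 0.78, edgeR adjusted p 0.709). Estimates of Mvk (0.32), Pmvk (-0.33), Hsd17b7 (0.54), Ebp (-0.99) and Dhcr7 (-0.37) also had intervals that include 0. Ebp was -0.056 without control replicate 1 and -1.59 without control replicate 2. Idi2 had a count of 0 in every library.

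Of 14 genes described here that regulate the pathway or take up sterol, 6 were tested and 0 were called. Srebf2, which encodes SREBP2, had 76.8 and 124 CPM in cKO and 80.04 and 131 CPM in control (log2 fold change -0.16, 95% interval -1.37 to 1.06). Insig2, which holds SREBP in the endoplasmic reticulum when sterol is plentiful, had the estimate nearest 0 of these, with 129 and 270 CPM in cKO around 213 and 172 CPM in control (log2 fold change -0.014, edgeR adjusted p 0.998). Npc2, which carries cholesterol out of lysosomes, had the lowest estimate, with 93.0 and 214 CPM in cKO and 315 and 323 CPM in control. Its log2 fold change was -1.15 (standard error 0.50, unadjusted p 0.0380, edgeR adjusted p 0.535), and it was -0.62 without cKO replicate 1 and -1.77 without cKO replicate 2. Npc1l1 had a count of 0 in every library. Among genes of efflux, storage and sulfation 4 were tested and 0 were called, from Soat1 at -0.02 to Sult2b1 at 1.54. Sult2b1, the sulfotransferase that makes cholesterol sulfate, had 182 and 169 CPM in cKO and 48.0 and 70.3 CPM in control (standard error 0.52, unadjusted p 0.0109, edgeR adjusted p 0.339). Its groups did not overlap, but the difference did not pass the threshold.

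The summed level of the sebaceous markers was highest in cKO replicate 2, with and without Krt79. Of the 12 markers all had a count, and 10 were tested with 0 called. The part of these and of the muscle, hair follicle, fibroblast and basal markers in the enzymes' values was not tested, and in these bulk libraries fewer cells of a type and less RNA per cell cannot be told apart. The summed level of 10 cycling-cell markers was 481 and 348 CPM in cKO against 283 and 214 CPM in control, and its part was not tested. That of 11 suprabasal keratinocyte markers was 29849 and 18420 CPM in cKO against 9914.5 and 22303 CPM in control, and the groups overlapped. Single suprabasal markers went both ways, and 10 were tested. Their groups were apart with cKO higher in 2 and lower in 3, and groups were apart in 38.5% of all tested genes. Flg alone was called, where 0.848% of all tested genes were. It had 8968 and 5383 CPM in cKO against 107 and 313 CPM in control (edgeR adjusted p 0.000593). This suprabasal sum was higher in control replicate 2 than in control replicate 1, and its part was not tested.

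By the rule for likeness, the mean centred log2 profile of the 7 tested enzymes was compared with 3543 genes of at least 50 CPM outside the pathway lists. This mean profile was -0.09 and 0.11 in cKO and -0.37 and 0.35 in control, so that the controls formed both ends. The 5 nearest genes over the 4 libraries were Cdc123, Psmd8, Tmem59, Prkar1a and Dlgap4, at root mean square differences of 0.038 to 0.071 log2 units. The enzymes themselves lay farther from their mean, from 0.153 for Fdft1 to 0.357 for Sqle, and the median gene compared lay at 0.544. The profile is the mean of these 7 enzymes, and the 5 genes were picked as the nearest of 3543. Both orders were thus partly set in advance. Psmd8, a proteasome subunit, had 368 and 438 CPM in cKO and 326 and 501 CPM in control. With 4 libraries such likeness is a description.

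Some reads of these enzymes could be shared with other genes. Among GENCODE M21 transcripts, Fdps had 5 genes that matched it at 95% identity or more along 150 bases or more. Of these, Gm3571 (98.9% over 1062 bases) was counted 4 and 2 times in cKO and 0 and 4 times in control. Gm43738, identical to Fdps over 929 bases, had no count available here. Gm13502, identical to Idi1 over 684 bases, had 1 count in each cKO library and 1 and 2 in the controls, beside 3 to 15 for Idi1. Msmo1 shared stretches of 151 to 203 bases with 56 genes, and Sqle and Sc5d had 0 such genes. How reads with several alignments were counted is not given in the sources used here.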

How the data were processed

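Epidermis was separated from dorsal skin with sodium thiocyanate and its RNA was made into 3' libraries with the QIAseq UPX kit, per the labels' protocols. The authors deposited whole-number counts per gene and did not normalise them. The table holds 0 columns of samples outside the series. The submitters' processing notes name Trim Galore 0.6.7, Trimmomatic 0.39, cutadapt 3.7, STAR 2.7.10a, featureCounts 2.0.1 and the build GRCm39. Strand use and the collapsing of molecular identifiers are not given in the sources used here. Positions of genes are those of the table, and promoter windows are GRCm38.p6, so these were not combined.

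The counts were fitted with genotype as the only term in edgeR 4.0.16 (R 4.3.3) with its quasi-likelihood test, TMM scaling, filterByExpr (minimum count 10, minimum total 15) and Benjamini-Hochberg adjustment over 4243 genes, at a threshold of 0.05. Standard errors are the absolute log2 fold change over the root of F, and intervals use the fit's t quantile. The fitting code was run on counts simulated from the fit's own dispersions, which cannot show that the fit holds for these 4 libraries. Replicate differences and the likeness profile used log2(CPM + 1). Alternatives used DESeq2 1.42.0, limma 3.58.1 (voom), other scalings and filters, a replicate block and each library left out. Near copies were found with blastn 2.17.0. The genes and lists were chosen with earlier results of these data known. All 8 enzymes are named, with the highest and lowest tested gene of each pathway list among those described and the 5 genes of nearest profile. Idi1 and Stim2 fell under the filter and were each added to the tested genes, which departs from the written plan. The symbols Sts and Krt85 of the lists did not match the table and were not analysed here. Some genes of the pathway are not reported here, and lists and shares are counted without them. Other genes named were chosen after their values were seen.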

Additional observations from a re-analysis of the deposited data

How the results depend on the processing

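Under all 14 alternatives and the crossed block, 0 of the tested enzymes passed the threshold and 0 had an unadjusted p under 0.05. The number of called genes, 36, became 75 without a count filter, 55 with a mean of at least 10 CPM, 15 under limma-voom and 17 under the replicate block. It ran from 35 to 73 with 1 library left out. Higher and lower genes numbered 49 and 26 without a filter, 12 and 3 under limma-voom, and 16 and 1 under the replicate block. The labels do not say that equal numbers mark paired mice, and same-numbered libraries had a correlation of -0.163 in their deviations from the group means. A crossed replicate block, chosen after seeing the data, gave 147 calls. With 1 library left out, the median of the tested enzymes ran from -0.43 (control replicate 1) to 0.15 (control replicate 2), and it was 0.23 under the replicate block. Scaling by library totals alone moved the median of all genes to -0.21, and Cyp51 was then -0.0023 and Msmo1 -0.15. With DESeq2 Insig2 was 0.014. With 1 library left out, Hmgcs1 ran from -0.81 to 0.10, Fdft1 from -0.71 to 0.15, Sqle from -0.086 to 0.77, Msmo1 from -0.43 to 1.07 and Sc5d from -0.034 to 0.80. Among the other genes Mvk ran from -0.80 to 0.81, Hsd17b7 from -0.53 to 2.04, Dhcr7 from -0.73 to 0.19, Srebf2 from -0.47 to 0.27, Insig2 from -0.56 to 0.45, Soat1 from -0.29 to 0.20 and Fasn from -1.80 to 0.57. The cause of these shifts was not tested. Fdps (-0.79 to -0.28) and Idi1 (0.69 to 1.58) kept their sign in the 14 alternatives. The pooled spread assumes that a lone library varies like the other group.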

Other observations

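Fatty acid synthesis, which SREBP proteins also control, was looked at beside the sterol enzymes. Of 13 listed genes, 8 were tested and 0 were called (median log2 fold change 0.28). Elovl6, which lengthens palmitate, had the highest estimate, with 178 and 124 CPM in cKO and 37.4 and 102 CPM in control (log2 fold change 1.09, standard error 0.58, edgeR adjusted p 0.680). It was 0.59 without control replicate 1 and 2.02 without control replicate 2. Scd1, the stearoyl-CoA desaturase, had 493 and 697 CPM in cKO and 256 and 310 CPM in control, and both cKO values lay above both control values (log2 fold change 1.05, unadjusted p 0.0287, edgeR adjusted p 0.494). Fasn, the fatty acid synthase, had the lowest estimate at -0.66, with 24.3 and 101 CPM in cKO and 37.4 and 128 CPM in control.

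The isoprenoid branch leaves the pathway at farnesyl diphosphate. Of its 9 listed genes 3 were tested and 0 were called. Nus1, a subunit of the dolichol-forming enzyme, had 76.8 and 78.7 CPM in cKO and 37.4 and 63.9 CPM in control (log2 fold change 0.58, edgeR adjusted p 0.936). Dhdds, its partner subunit, had 32.3 and 11.2 CPM in cKO and 53.4 and 51.1 CPM in control (log2 fold change -1.06, edgeR adjusted p 0.880). Dhdds was -2.19 without cKO replicate 1 and -0.67 without cKO replicate 2. Estimates of these partners had opposite signs, and neither passed the threshold.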
